A study of Homo sapiens with 12 samples.

Results

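SK-N-SH cells kept at the middle of 3 substrate stiffnesses, 8 kPa, were compared with the same cells at both ends of the range. The test set 8 kPa against the mean of the log2 levels at 1 and 30 kPa. The members were the 4 libraries from 8 kPa, set against the 8 libraries from 1 and 30 kPa, so that all 12 libraries of the series entered, and the comparison ran over 17960 expressed genes of the 60664 in the table. A gene was called a peak when its level at 8 kPa lay above the mean of the log2 levels at 1 and 30 kPa (edgeR adjusted p under 0.05) and each of the 4 libraries at 8 kPa was above each of the other 8. A dip was the mirror image. A step was a gene that differed between 8 and 1 kPa (edgeR adjusted p under 0.05), was neither peak nor dip, and whose log2 change from 8 to 30 kPa was at most 0.25 of the size of its change from 1 to 8 kPa. By these rules there were 379 peaks, 177 dips, 374 upward steps and 204 downward steps.

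SK-N-SH is an established human neuroblastoma line, a tumor of the sympathetic nervous lineage, that holds a mix of cells with neuronal features and flat, strongly adherent ones. The 3 groups differed in the stiffness of the substrate alone, as far as the labels say: 1 kPa (n = 4 libraries), 8 kPa (n = 4) and 30 kPa (n = 4), with no drug, transgene or deletion named in any group. The kilopascal is a unit of elastic modulus, and a larger value is a stiffer surface. The labels do not say what the substrate was made of, how long the cells stayed on it, or whether the libraries of a group came from separate cultures, so p-values measure the spread between these libraries, which may be technical. The series asks how stiffness shapes gene expression and signaling in neuroblastoma cells.

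Cells sense the stiffness of what they adhere to through integrins, focal adhesions and the contractile actin network, and pass it on to transcription through regulators such as YAP and TAZ. Responses to stiffness need not run in one direction: a gene can change and then level off, or turn back past an intermediate stiffness. Ribosomal proteins, respiratory chain subunits and proteasome subunits are made from abundant, short messenger RNAs that tend to be regulated in groups, while the genes of mitosis are switched on together late in the cell cycle.

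The 1 kPa libraries held 14317437 to 15896607 counts each and the 30 kPa libraries 23896536 to 27820973. At 8 kPa, replicate 1 had 14951116 counts and replicates 2 to 4 had 24237571 to 25349320, so stiffness and depth were partly confounded: 8 kPa replicate 1 was the only shallow library outside 1 kPa. Markers of the line were present in every library, with HAND2 at 197 to 391 CPM (counts scaled to a common library size after TMM normalization) and VIM, an intermediate filament of mesenchymal cells, at 1060 to 1790 CPM, whereas TH, the rate-limiting enzyme of catecholamine synthesis, was at 0 to 0.0358 CPM. Markers of other cells were low for immune cells (11 genes summing to 1.58 to 2.78 CPM at 8 kPa, 1.9 to 2.58 at 1 kPa and 1.71 to 3.24 at 30 kPa, with MS4A1 and NKG7 at 0) and for endothelial cells (8 genes, 5.61 to 9.58 CPM at 8 kPa, 6.24 to 11.2 at 1 kPa and 4.63 to 5.3 at 30 kPa). The 9 epithelial markers summed to 52.6 to 75 CPM at 8 kPa against 49 to 63.5 CPM elsewhere, with KRT5 and KRT14 at 0, and the 10 fibroblast markers, which mesenchymal-type cells of the line also express, to 2070 to 2310 CPM at 8 kPa, 2320 to 2670 at 1 kPa and 2170 to 2410 at 30 kPa.

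The number of calls depended on which libraries were included and on how the extremes were combined. With all 12 libraries, 794 genes were higher at 8 kPa than the mean of both extremes (4.42% of the genes tested) and 478 were lower (2.66%), 1272 in all (7.08%). When 1 and 30 kPa were instead pooled into 1 group, edgeR called 0 departures, and so 0 peaks and 0 dips. Without 8 kPa replicate 1, without 8 kPa replicate 3 or without 30 kPa replicate 1, edgeR called 0 genes, with 3373, 3292 and 4355 genes at an unadjusted p under 0.05, against 4938 with all libraries. Without 30 kPa replicate 2 it called 1 gene, and without 8 kPa replicate 4 it called 2870. All 92 departures of single genes described by the naming rule lost their call in at least 4 of the 12 fits that left out 1 library. For the most part this restates the fits with 0 or 1 calls and is no separate evidence on each gene. The median departure of the 379 peaks ran from 0.24 to 0.28 (log2) and that of the 177 dips from -0.38 to -0.31 over those 12 fits, but these genes were chosen on all 12 libraries, so the narrow ranges follow from the choice and are no sign of stability.

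**Figure D1:**
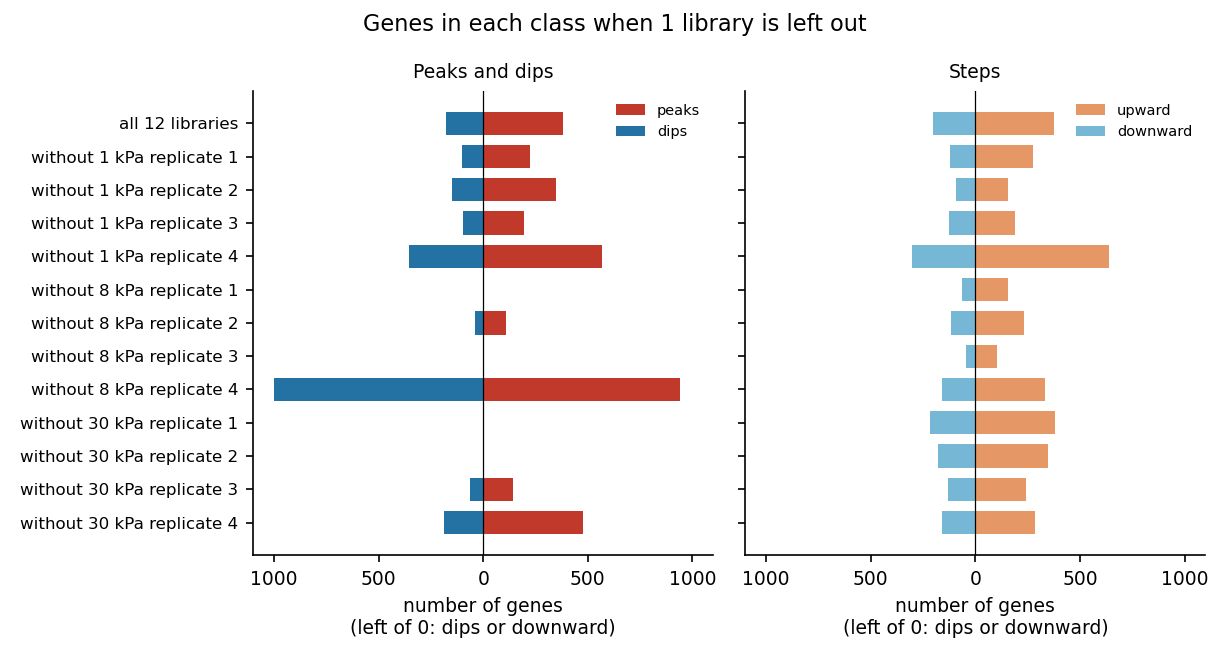
Number of genes in each class with all 12 libraries and with each library left out in turn. Bars to the right of 0 are peaks (left panel) or upward steps (right panel), and bars to the left of 0 are dips or downward steps. Peaks and dips together fall to 0 or 1 in 4 of the 12 fits, while between 149 and 942 steps are found in every fit.

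Most genes called between 1 and 8 kPa had estimates that turned back at 30 kPa. Of the 17960 genes, 1467 were higher at 8 than at 1 kPa (8.17%) and 1005 were lower (5.6%), whereas edgeR called 0 genes between 8 and 30 kPa (0.0%), with 3218 at an unadjusted p under 0.05. Both counts moved with the libraries and the settings. Without 8 kPa replicate 4, edgeR called 542 genes higher and 484 lower at 30 than at 8 kPa, and without 1 kPa replicate 2 it called 60 and 127. DESeq2 called 127 and 303, edgeR without a filter on low counts 159 and 171, and edgeR with a replicate block 13 and 27. Between 8 and 1 kPa the calls fell to 353 higher and 181 lower without 8 kPa replicate 3 and to 498 and 273 without 8 kPa replicate 1. A missed threshold between 8 and 30 kPa does not show that the levels were alike, which is why a limit of size defined the steps. Both comparisons share the 8 kPa libraries, so a high or low value there moves them in opposite directions.

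Among the 2472 genes called between 8 and 1 kPa, 358 were peaks, 162 were dips, 374 were upward steps and 204 were downward steps. A further 715 rose and 600 fell from 1 to 8 kPa and had estimates that then turned back by more than 0.25 of that change, but with libraries that overlapped between groups or a departure that was not called. The estimates of 20 went further up and those of 39 further down by more than that share. All 4 libraries at 8 kPa lay above the other 8 for 496 genes (2.76%) and below them for 263 (1.46%) when no test was asked for. Of the 1272 departures, 556 were peaks or dips, which makes peaks 2.11% and dips 0.986% of the genes tested. A further 376 higher and 287 lower genes had overlapping libraries, and 53 were steps.

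**Figure D2:**
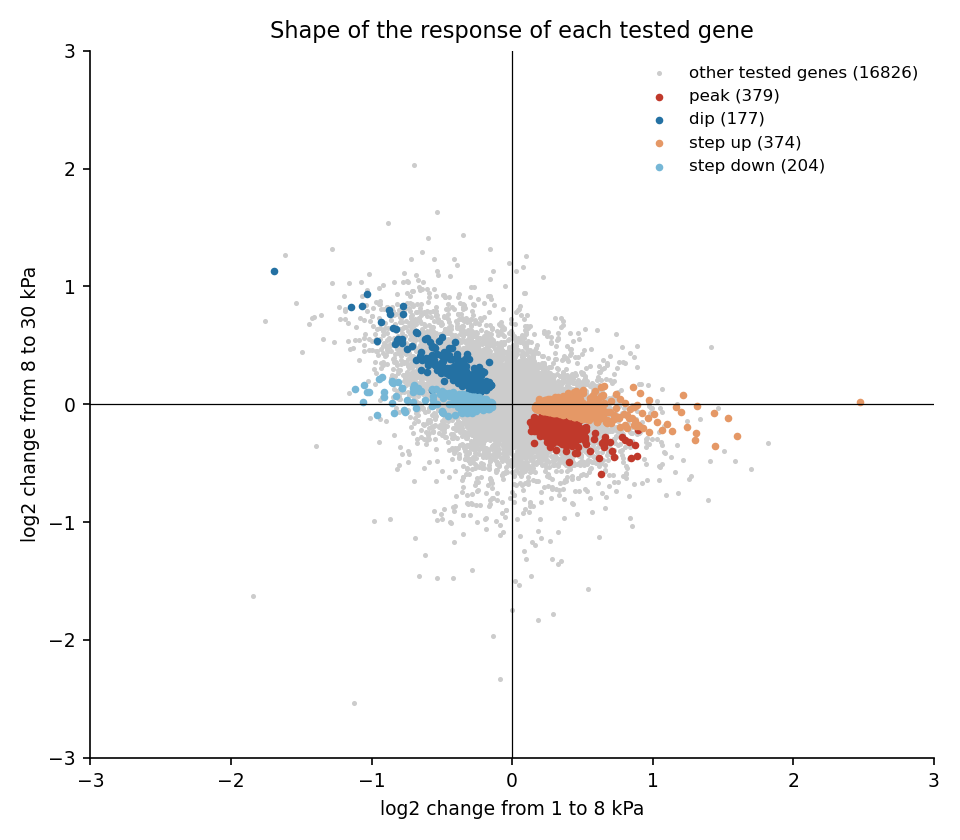
Change from 1 to 8 kPa (horizontal axis, log2) and from 8 to 30 kPa (vertical axis, log2) of each of the 17960 genes, from 1 fit to the 12 libraries. Peaks lie at the lower right, dips at the upper left and steps along the horizontal line, and the 8 kPa libraries enter both axes with opposite sign, which by itself tilts the cloud downward to the right.

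The changes were small. The median departure was 0.26 (log2) for peaks and -0.34 for dips, against -0.005 for all tested genes, and the most extreme values were 0.66 for a peak and -1.41 for a dip, the low-count noncoding gene SLC7A11-AS1. Since these values placed the genes in their classes, they are a description. The rule has a sharp edge: NDUFA4, a cytochrome c oxidase-associated subunit, was the narrowest peak, with a gap of 0.0002 (log2) between its lowest library at 8 kPa and the highest of the others, both at 140.7 CPM, and FKBP3 missed the class by a gap of -0.0001. MARCHF6 was the narrowest dip, its highest library at 8 kPa at 333.0 CPM against 333.2 in the lowest of the others.

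Among the gene lists used here, those of protein synthesis and breakdown, the respiratory chain and glycolysis had the highest shares of peaks. The lists were chosen with earlier results of these data known, and most of the 379 peaks were in none of them. Of 73 cytosolic ribosomal proteins, 52 were higher at 8 kPa (71.2%) and 17 were peaks (23.3%), against 4.42% and 2.11% of all tested genes, and none was lower. Their median departure was 0.31 (log2), and 69 of the 73 had a mean level at 8 kPa above both others. RPS9, a protein of the small ribosomal subunit, had 226, 204, 241 and 259.5 CPM at 1 kPa, 334, 310.1, 336 and 310.2 CPM at 8 kPa, and 284, 264, 279.6 and 307 CPM at 30 kPa. Every library at 8 kPa was above the highest of the others, 30 kPa replicate 4, by a narrow margin, and the departure was 0.33 ± 0.0625 (SE, adjusted p = 0.0231). RPL3, a protein of the large subunit near the peptidyl transferase center, had 562 ± 86.8 CPM (SD, n = 4) at 1 kPa, 828 ± 59.3 at 8 kPa and 703 ± 40 at 30 kPa. Its departure of 0.40 ± 0.083 (SE, adjusted p = 0.0275) was called, but 30 kPa replicate 4 at 758.4 CPM lay above 8 kPa replicate 2 at 751.1, so that RPL3 was no peak.

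How many ribosomal protein genes were peaks depended on that library, 30 kPa replicate 4: without it the number of peaks was 51 of 73. Over the 12 fits that left out 1 library the number ran from 0 to 51, while the median departure of the list stayed between 0.26 and 0.34. A fit that added the depth class found 16. Ribosomal protein genes have many processed copies in the genome, and 3 of the 12 strongest peaks above 5 CPM, RPL7P9, RPL7AP6 and RPL13AP5, are annotated as such pseudogenes. Reads of a parent gene and its copies can be split by the counting, so those 3 are uncertain. Translation factors showed a smaller share: 14 of 39 were higher and 1 was lower, with 6 peaks (15.4%) and 1 dip. The largest departure among the 3 named was that of EIF4EBP1, an inhibitor of cap-dependent translation, with 14.98 ± 2.99 CPM at 1 kPa, 25.1 ± 1.83 at 8 kPa and 20.7 ± 1.58 at 30 kPa, a departure of 0.51 ± 0.0962 (SE, adjusted p = 0.0231) with libraries that overlapped.

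Subunits of the respiratory chain encoded in the nucleus were another large group of peaks among the lists. Of 77 tested, 32 were higher (41.6%), 18 were peaks (23.4%) and none was lower, and the median departure was 0.2. NDUFB3, an accessory subunit of complex I, had 36.96, 34.6, 37.3 and 37.4 CPM at 1 kPa, 51.5, 47.4, 51.1 and 46.6 CPM at 8 kPa, and 38.6, 38.6, 40.7 and 43.5 CPM at 30 kPa. All libraries at 8 kPa were above all others, 30 kPa replicate 4 coming nearest, and the departure was 0.35 ± 0.0488 (SE, adjusted p = 0.0231). NDUFS5, another complex I subunit, had 128, 109, 124 and 136 CPM at 1 kPa, 164, 163, 169.7 and 155 CPM at 8 kPa, and 130, 129.8, 128 and 149.7 CPM at 30 kPa. Again no library overlapped, and the departure was 0.33 ± 0.0601 (SE, adjusted p = 0.0231). The peaks spanned the complexes: NDUFA6, NDUFB6 and NDUFS1 of complex I, SDHB of complex II, UQCRB and UQCRFS1 of complex III, COX7B of complex IV, ATP5PD and ATP5PF of the ATP synthase, and CYCS, the electron carrier cytochrome c. NDUFA6 had a departure of 0.43 ± 0.0726 (SE, adjusted p = 0.0231). Of these, NDUFB6, NDUFS1, SDHB, UQCRB, UQCRFS1, COX7B, ATP5PD, ATP5PF and CYCS fell outside the naming rule and were chosen after their values were seen, to show the spread over complexes. Leaving out 1 library gave 0 to 35 peaks in this list, and a depth term gave 16.

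The 13 protein genes of the mitochondrial genome, whose products join the same complexes, went the other way. All 13 had a mean level at 8 kPa below both others, with a median departure of -0.32, and 3 passed the test (23.1% against 2.66%), MT-CYB being the 1 dip. MT-CYB, the cytochrome b of complex III, had 9601, 11350, 11420 and 8402 CPM at 1 kPa, 6826, 8263, 6754 and 7522 CPM at 8 kPa, and 8957, 9227, 8702 and 8316 CPM at 30 kPa. The highest library at 8 kPa, replicate 2, was just below the lowest of the others, 30 kPa replicate 4, and the departure was -0.37 ± 0.0976 (SE, adjusted p = 0.0405). The whole mitochondrial genome took 10.7% ± 0.553 of the counts at 8 kPa (SD, n = 4), 13.5% ± 1.59 at 1 kPa (n = 4) and 12.4% ± 0.604 at 30 kPa (n = 4). The pooled difference was -2.26 percentage points (two-sided exact permutation test over 495 splits, p = 0.00808, smallest possible 0.00404). Ranges overlapped, from 10.2% to 11.5% at 8 kPa against 11.3% to 14.8% elsewhere. Within the shallow class, 8 kPa replicate 1 was at 10.2% against 11.3% to 14.8% at 1 kPa, and within the deep class 10.4% to 11.5% stood against 11.7% to 13.2% at 30 kPa. Whether this share plays a part in the levels of other genes was not tested.

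Mitochondrial ribosomal proteins, which translate those mitochondrial messages, had the same direction as the cytosolic ones. Of 70 tested, 22 were higher (31.4%), 12 were peaks (17.1%) and none was lower, with a median departure of 0.15. MRPL17, a large-subunit protein, had 39.7, 38.2, 41.8 and 42.03 CPM at 1 kPa, 52.95, 47.2, 49.9 and 51.8 CPM at 8 kPa, and 43.8, 42.6, 44.9 and 46.1 CPM at 30 kPa. Its libraries at 8 kPa were all above the others, by about 1 CPM at the nearest, and the departure was 0.25 ± 0.0457 (SE, adjusted p = 0.0231). MRPS7, a small-subunit protein, had 39.5 ± 2.56 CPM at 1 kPa, 51.4 ± 3.65 at 8 kPa and 44.7 ± 1.07 at 30 kPa, a departure of 0.29 ± 0.0527 (SE, adjusted p = 0.0231). A further 5 genes of the list were upward steps, beside 2.08% of all tested genes.

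Of 35 proteasome subunits, 9 were peaks (25.7% against 2.11%). Leaving out 1 library gave 0 to 15, with 0 when replicate 1 or 3 at 8 kPa or replicate 1 or 2 at 30 kPa was dropped. The proteasome degrades ubiquitin-tagged proteins through a catalytic core and a regulatory cap, and peaks came from the core (PSMB6, PSMB2, PSMB1, PSMB7, PSMA4), from the cap (PSMC3, PSMD8, PSMC5) and from POMP, its assembly chaperone. All but PSMB6 and PSMC3 were named after their values were seen. PSMB6, a catalytic subunit, had 48.6, 50.9, 50.1 and 52.7 CPM at 1 kPa, 64.04, 66.7, 64.4 and 62.2 CPM at 8 kPa, and 55.7, 55.7, 54.3 and 60.1 CPM at 30 kPa. The groups did not overlap, and the departure was 0.27 ± 0.0413 (SE, adjusted p = 0.0231). PSMC3, an ATPase of the cap, had 79.2 ± 3.4 CPM at 1 kPa, 99.4 ± 2.11 at 8 kPa and 85.5 ± 6.26 at 30 kPa, a departure of 0.27 ± 0.0476 (SE, adjusted p = 0.0231). In all, 14 of the 35 were higher and none was lower, and 1 gene, PSMA2, was a downward step.

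Glycolysis gave 5 peaks among 23 genes (21.7%) although the median of the list was only 0.06. The 5 were TPI1, GAPDH, PGAM1, PGK1 and HK1, of which PGK1 and HK1 were named because the count was small. TPI1, triosephosphate isomerase, had 314, 280.2, 312 and 338 CPM at 1 kPa, 408, 373, 414 and 359.7 CPM at 8 kPa, and 310.5, 312, 326 and 342 CPM at 30 kPa. Only 8 kPa replicate 4 came near the others, and the departure was 0.30 ± 0.0583 (SE, adjusted p = 0.0245). GAPDH, the most abundant of them, had 2248 ± 89.9 CPM at 1 kPa, 2624 ± 110 at 8 kPa and 2188 ± 128 at 30 kPa, a departure of 0.24 ± 0.0597 (SE, adjusted p = 0.0345). ALDOC, a brain-type aldolase, was also higher, with a departure of 0.41 ± 0.102 (SE, adjusted p = 0.0351), but its libraries overlapped, and the other 17 members did not pass the test.

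Some of the 12 strongest peaks encode proteins that act on RNA or its synthesis, named here one by one for their departures. LSM3 and SNRPG, ring proteins of the spliceosomal small nuclear ribonucleoproteins, had departures of 0.50 ± 0.117 (SE, adjusted p = 0.0311) and 0.49 ± 0.101 (SE, adjusted p = 0.0275). LSM3 had 34.1, 20.3, 35.6 and 37.98 CPM at 1 kPa, 53.8, 48.6, 52.96 and 46.6 CPM at 8 kPa, and 36.4, 37.6, 43.6 and 42.1 CPM at 30 kPa. The 1 kPa group was spread widely, with replicate 2 lowest, and all of it lay under the 8 kPa libraries. Splicing factors as a list gave 6 peaks of 43 (14% against 2.11% of all tested genes) and 4 upward steps, beside 2.08%. Of the 43, 11 were higher, beside 4.42%, and 1 was lower, beside 2.66%, with a median of 0.11. POLR2J, a subunit of RNA polymerase II, had 44.2 ± 5.16 CPM at 1 kPa, 58.8 ± 5.93 at 8 kPa and 41.9 ± 4.01 at 30 kPa, a departure of 0.45 ± 0.0798 (SE, adjusted p = 0.0231). GTF3C6, a subunit of transcription factor IIIC, which recruits RNA polymerase III, had 39.8, 30.5, 41.7 and 46.8 CPM at 1 kPa, 56.9, 54.1, 57.1 and 51.4 CPM at 8 kPa, and 38.6, 38.96, 40.4 and 46.3 CPM at 30 kPa. Its lowest library at 8 kPa was above the highest at either extreme, and the departure was 0.44 ± 0.0857 (SE, adjusted p = 0.0238). LSM3 overlaps XPC and POLR2J overlaps LRWD1 on the opposite strand, and without a stated strand setting their counts cannot be told apart from those partners.

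Of 32 tested genes of actin, myosin and SRF, 2 were peaks, CFL1 and PFN1, beside 2.11% of all tested genes. CFL1, cofilin, which severs actin filaments, had 404, 362, 403 and 443 CPM at 1 kPa, 521, 497, 514 and 502 CPM at 8 kPa, and 414, 439.5, 454 and 472 CPM at 30 kPa. The 8 kPa group was tight and lay above all others, with a departure of 0.26 ± 0.056 (SE, adjusted p = 0.0278). PFN1, profilin, which feeds actin monomers to growing filaments, had 361 ± 26.1 CPM at 1 kPa, 444 ± 10.4 at 8 kPa and 383 ± 27.3 at 30 kPa, a departure of 0.26 ± 0.0563 (SE, adjusted p = 0.0295). In all, 4 of the 32 were higher (12.5% against 4.42% of all tested genes), none was lower and the list's median was 0.01. Other strong peaks were TAGLN3, a neuronal calponin-family protein, with a departure of 0.51 ± 0.119 (SE, adjusted p = 0.0307) at 10.3 ± 1.65 CPM, and UBE2S, the ubiquitin-conjugating enzyme of the anaphase-promoting complex, with 0.47 ± 0.0899 (SE, adjusted p = 0.0231). UBE2S overlaps RPL28, a ribosomal protein gene that is itself a peak, on the opposite strand. CENPW and SKA2, which serve at the kinetochore, were peaks as well, with departures of 0.48 ± 0.125 (SE, adjusted p = 0.0386) and 0.44 ± 0.0977 (SE, adjusted p = 0.0301). Also overlapped on the opposite strand by annotated genes, and uncertain for that reason, are the peaks PRSS3, SKA2, MRPS7, NDUFA6, NDUFB3, TPI1, GAPDH, CFL1, PFN1, ACAT2 and ID2, the dips ADAMTS4, FLCN, TPP1, FAM111A, PRRT2, CCDC18-AS1 and ARHGEF17, and TAP1, ITGA2 and THBS3-AS1.

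**Figure D3:**
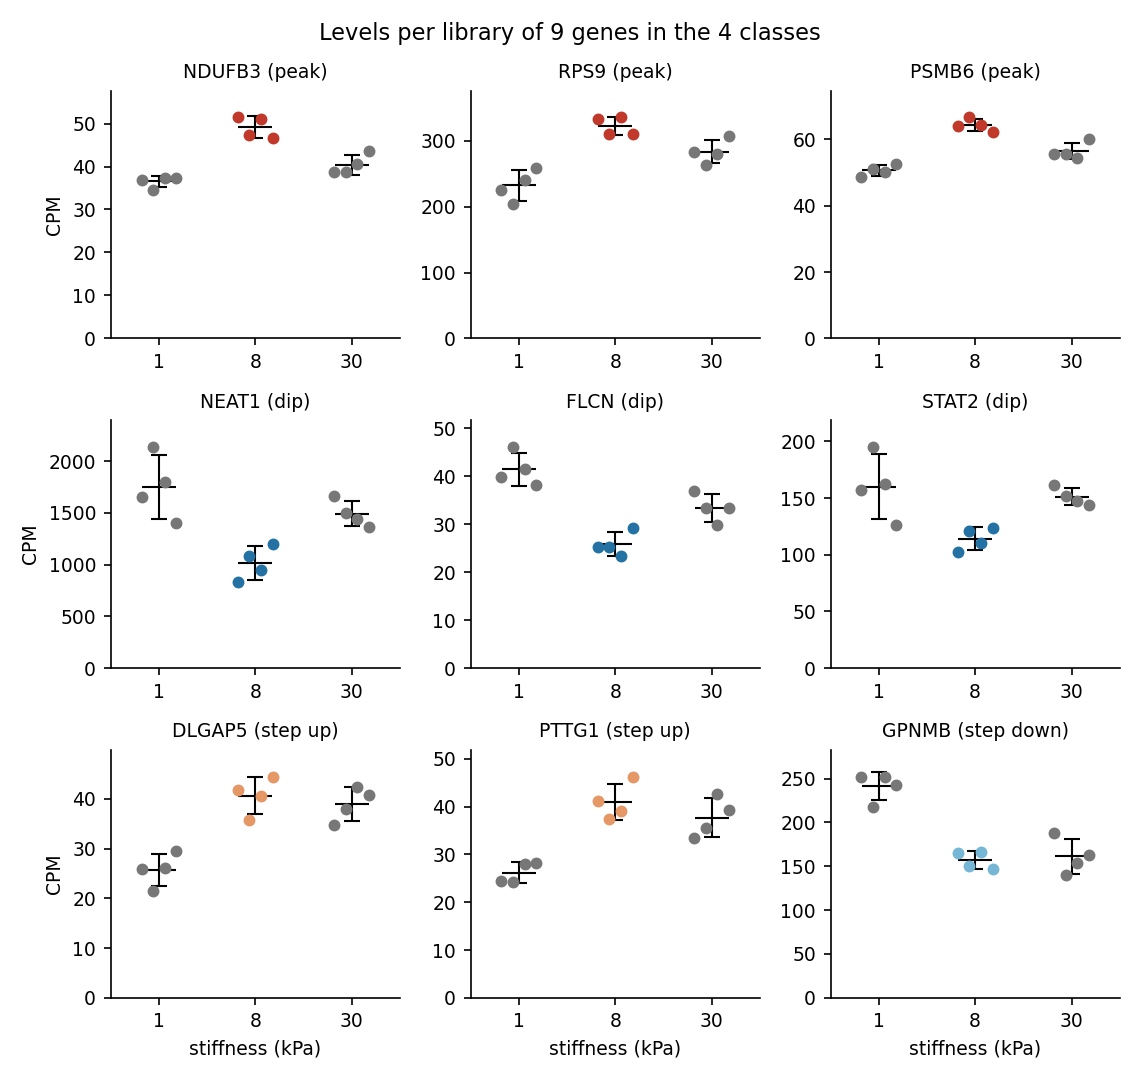
Level in CPM (vertical axis, from 0) by substrate stiffness (horizontal axis, 1, 8 and 30 kPa) of 3 peaks, 3 dips, 2 upward steps and 1 downward step. Each point is a library, drawn in replicate order from left to right, and the black marks are the mean and SD of the 4 libraries. Peaks and dips stand apart at 8 kPa by narrow margins, and DLGAP5, PTTG1 and GPNMB keep about their 8 kPa level at 30 kPa.

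Dips were fewer, somewhat larger and less grouped by pathway. NEAT1, the long noncoding RNA that scaffolds nuclear paraspeckles, had 1657, 2140, 1798 and 1405 CPM at 1 kPa, 833, 1085, 944 and 1204 CPM at 8 kPa, and 1660, 1495, 1446 and 1369 CPM at 30 kPa. Every library at 8 kPa was lower than every other, and the departure was -0.67 ± 0.115 (SE, adjusted p = 0.0231), a mean of 1016 ± 162 CPM against 1750 ± 307 at 1 kPa and 1492 ± 123 at 30 kPa. NEAT1 lies at chr11:65422774-65445540 (GRCh38, plus strand) next to MALAT1, a nuclear speckle RNA, which had 1791 ± 210 CPM at 1 kPa, 1130 ± 133 at 8 kPa and 1385 ± 135 at 30 kPa. MALAT1 departed by -0.48 ± 0.092 (SE, adjusted p = 0.0233) but was no dip, since 8 kPa replicate 4 at 1313 CPM overlapped 30 kPa replicate 4 at 1194. Of 19 tested paraspeckle proteins and nuclear RNAs, 6 were lower (31.6% against 2.66%), none was higher and 1 was a dip, with a median of -0.2.

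Lysosomal genes gave 3 dips of 39 (7.69% against 0.986%) and 3 downward steps (7.69% against 1.14%). FLCN, folliculin, which acts at the lysosome in amino acid signaling to mTORC1, had 39.9, 46.1, 41.5 and 38.1 CPM at 1 kPa, 25.2, 25.3, 23.4 and 29.3 CPM at 8 kPa, and 37.01, 33.4, 29.8 and 33.5 CPM at 30 kPa. The highest library at 8 kPa was replicate 4, under the lowest at 30 kPa, and the departure was -0.53 ± 0.0747 (SE, adjusted p = 0.0231). TPP1, a lysosomal peptidase, had 134 ± 13.5 CPM at 1 kPa, 105 ± 2.47 at 8 kPa and 117 ± 7.6 at 30 kPa, a departure of -0.26 ± 0.0601 (SE, adjusted p = 0.0309). CTSA, cathepsin A, was the remaining dip. Across the list of 39, 6 genes were lower, beside 2.66% of all tested genes, and 1 was higher, beside 4.42%. The list's median departure was -0.12.

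The interferon list held 1 dip in 46 (2.17% against 0.986%), a share that rests on 1 gene. Of the 46, 4 were lower, beside 2.66% of all tested genes, and none was higher. The dip was STAT2, the subunit of the interferon-activated factor ISGF3 that carries its activation domain, which had 157, 195, 162 and 126 CPM at 1 kPa, 102, 120.5, 111 and 124 CPM at 8 kPa, and 162, 152, 147 and 144 CPM at 30 kPa. The margin was narrow, 8 kPa replicate 4 at 123.7 CPM under 1 kPa replicate 4 at 125.8, and the departure was -0.44 ± 0.091 (SE, adjusted p = 0.0275). TAP1, the peptide transporter of antigen presentation, had a departure of -0.23 ± 0.0534 (SE, adjusted p = 0.0307) with libraries that overlapped. DDX60, an interferon-induced helicase, had 27.7 ± 0.734 CPM at 1 kPa, 21.5 ± 1.88 at 8 kPa and 23.1 ± 0.0344 at 30 kPa, a departure of -0.23 ± 0.0552 (SE, adjusted p = 0.0319).

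Other dips came singly. ADAMTS4, a secreted protease that cleaves aggrecan, had 24.7, 30.2, 28.9 and 24.8 CPM at 1 kPa, 17.1, 21.4, 19.9 and 18.01 CPM at 8 kPa, and 27.6, 30.5, 29.99 and 26.3 CPM at 30 kPa. The 1 and 30 kPa groups overlapped each other and lay above all of the 8 kPa group, a departure of -0.54 ± 0.078 (SE, adjusted p = 0.0231). FAM111A, a nuclear protease involved in DNA replication, had 62.3 ± 14.1 CPM at 1 kPa, 41.4 ± 6.63 at 8 kPa and 59.9 ± 3.58 at 30 kPa, a departure of -0.55 ± 0.12 (SE, adjusted p = 0.0292). PRRT2, a presynaptic membrane protein, had a departure of -0.51 ± 0.0978 (SE, adjusted p = 0.0238), and the noncoding CCDC18-AS1 one of -0.51 ± 0.102 (SE, adjusted p = 0.0252). EIF4A1, the RNA helicase of cap-dependent translation, is listed as a dip, but its counts are shared with the read-through gene SENP3-EIF4A1 on the same strand and are uncertain. TSIX was also a dip and is antisense to another noncoding gene, so that its counts are uncertain too.

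Under the limit of size used here, steps were made up differently. Of 56 mitotic genes tested, 36 were upward steps (64.3% against 2.08% of all tested genes) and none was a downward step, whereas 1, UBE2S, was a peak. The departure was called higher for 8 of the 56, beside 4.42% of all tested genes, and lower for none. Their median departure was 0.24. The list's median change was 0.46 (log2) from 1 to 8 kPa and -0.01 from 8 to 30 kPa, beside -0.01 and 0.0 for all tested genes. For cytosolic ribosomal proteins those medians were 0.42 and -0.19. The contrast in step counts depended on the limit. With a limit of 0.5 of the first change, upward steps were 42 of 73 cytosolic ribosomal proteins, against 2 in the main fit. Mitotic upward steps were then 42 of 56, and the 17 ribosomal peaks stayed peaks. DLGAP5, a protein of spindle microtubules near chromosomes, had 25.99, 21.5, 26.1 and 29.4 CPM at 1 kPa, 41.9, 35.7, 40.6 and 44.5 CPM at 8 kPa, and 34.7, 38.1, 42.3 and 40.9 CPM at 30 kPa. All libraries at 8 kPa were above all at 1 kPa, and the 8 and 30 kPa groups overlapped. The change from 1 to 8 kPa was 0.66 ± 0.0954 (SE, adjusted p = 0.00521), and that from 8 to 30 kPa was -0.06 (95% interval -0.26 to 0.14). PTTG1, securin, which inhibits separase until anaphase, had 24.5, 24.1, 27.9 and 28.1 CPM at 1 kPa, 41.1, 37.5, 39.05 and 46.3 CPM at 8 kPa, and 33.3, 35.5, 42.5 and 39.3 CPM at 30 kPa. Here too the 1 kPa libraries stood alone at the bottom, with a change of 0.65 ± 0.0902 (SE, adjusted p = 0.00521) to 8 kPa and of -0.12 (95% interval -0.31 to 0.07) from there to 30 kPa. The steps included the cyclins CCNA2, CCNB1 and CCNB2, the kinases AURKA, PLK1, TTK and BUB1, and the mitotic motor proteins KIF11 and KIF20A. All were named after their values were seen. The intervals of DLGAP5 and PTTG1 from 8 to 30 kPa do not leave out small changes in either direction.

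Mitotic steps were found in every fit that left out 1 library, from 21 to 44 of 56. A fit that added the depth class called 0 genes between 8 and 1 kPa (4299 at an unadjusted p under 0.05) and so had 0 steps, because in that fit 8 kPa replicate 1 alone carries the comparison with 1 kPa. Among shallow libraries, 8 kPa replicate 1 lay above the 4 libraries at 1 kPa by a median of 0.45 (log2) for the 374 upward steps and 0.36 for the 379 peaks. Among deep libraries, 8 kPa replicates 2 to 4 lay above the 4 at 30 kPa by a median of 0.02 for upward steps and 0.2 for peaks. For dips those medians were -0.47 and -0.25, and for downward steps -0.34 and -0.01, beside -0.01 and 0.0 for all tested genes. The class rules used these same libraries, so the sign of the medians, and the small values of the steps among deep libraries, follow from the rules and are no check on depth. Within the shallow class the change from 1 to 8 kPa rests on 1 library.

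The promoters of mitotic genes carry a known pair of elements, the CHR (cell cycle genes homology region) and the CCAAT box, bound by MuvB-containing complexes and by NF-Y. Shown here are the 250 bases before the start of 3 upward steps, from the RefSeq promoter table on GRCh38.p14, with matches to TTTGAA (CHR) and CCAAT on either strand in capitals. DLGAP5 is at chr14:55191586-55191835 (minus strand), PLK1 at chr16:23678639-23678888 (plus strand) and CDC20 at chr1:43358731-43358980 (plus strand). PLK1, a mitotic kinase, and CDC20, the activator of the anaphase-promoting complex, were chosen after their values were seen.
DLGAP5: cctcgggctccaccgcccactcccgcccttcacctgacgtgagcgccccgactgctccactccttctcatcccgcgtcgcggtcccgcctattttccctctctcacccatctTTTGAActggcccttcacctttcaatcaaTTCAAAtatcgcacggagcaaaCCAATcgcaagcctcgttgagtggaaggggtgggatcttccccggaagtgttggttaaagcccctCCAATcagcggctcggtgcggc
PLK1: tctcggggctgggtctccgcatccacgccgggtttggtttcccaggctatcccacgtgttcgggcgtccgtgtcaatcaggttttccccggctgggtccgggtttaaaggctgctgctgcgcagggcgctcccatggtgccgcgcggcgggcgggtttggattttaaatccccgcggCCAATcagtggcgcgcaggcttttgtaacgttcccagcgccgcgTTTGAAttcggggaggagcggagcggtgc
CDC20: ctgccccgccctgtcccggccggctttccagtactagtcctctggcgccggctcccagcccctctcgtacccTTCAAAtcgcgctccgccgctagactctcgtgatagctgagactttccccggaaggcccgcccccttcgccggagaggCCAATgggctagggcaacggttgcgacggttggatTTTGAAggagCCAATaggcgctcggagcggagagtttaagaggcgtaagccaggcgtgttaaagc
PLK1 had 20.9 ± 3.88 CPM at 1 kPa, 31.7 ± 4.18 at 8 kPa and 30.8 ± 2.42 at 30 kPa, a change of 0.60 ± 0.122 (SE, adjusted p = 0.0109) and then -0.04 (95% interval -0.29 to 0.21). CDC20 had 15.8 ± 2.69, 25.3 ± 4.58 and 23.2 ± 4.01 CPM, with a change of 0.68 ± 0.156 (SE, adjusted p = 0.0155) and then -0.13 (95% interval -0.44 to 0.19).

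Peaks were searched in the same way, using the 300-base window of each gene (250 before and 50 after the start). Only genes with a single window in the table were used: 8758 of 17949 tested symbols, 234 of 379 peaks, 200 of 374 upward steps and 25 of the 36 mitotic steps. Since this is under 80% of each set, a comparison between classes is void and the shares describe the matched promoters alone. The CHR letters were in 17 of the 25 mitotic steps (68%), 28% of upward steps, 9.4% of peaks, 10% of tested genes and 16% of all 22112 promoters, and CCAAT in 22 of the 25 (88%), 52%, 43.2%, 37.5% and 36.2%. The ETS core CCGGAAG, common in promoters of housekeeping genes, was in 32.9% of peaks, 17% of upward steps, 19.7% of tested genes and 10.7% of all promoters. The NRF1 element (GCGC, then any base, then TGCGC), named for nuclear respiratory factor 1, was in 16.7% of peaks, 16% of upward steps, 12.1% of tested genes and 6.26% of all promoters. Both strands were searched and each motif was counted on its own, also where matches of different motifs overlapped. As examples of peaks, the promoters of GTF3C6 (chr6:110958456-110958705, plus strand) and CFL1 (chr11:65858181-65858430, minus strand) are shown with the ETS core in capitals, and that of MRPL17 (chr11:6683341-6683590, minus strand) with the NRF1 element in capitals.
GTF3C6: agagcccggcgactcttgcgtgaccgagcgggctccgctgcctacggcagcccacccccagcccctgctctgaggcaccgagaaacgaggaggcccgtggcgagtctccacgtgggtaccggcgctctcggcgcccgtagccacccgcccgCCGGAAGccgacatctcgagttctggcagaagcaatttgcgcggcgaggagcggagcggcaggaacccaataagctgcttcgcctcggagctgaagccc
CFL1: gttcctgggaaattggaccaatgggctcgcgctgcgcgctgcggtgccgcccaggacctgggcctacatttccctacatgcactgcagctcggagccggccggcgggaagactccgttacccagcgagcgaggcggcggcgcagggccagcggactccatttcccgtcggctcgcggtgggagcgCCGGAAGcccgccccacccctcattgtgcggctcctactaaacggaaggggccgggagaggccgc
MRPL17: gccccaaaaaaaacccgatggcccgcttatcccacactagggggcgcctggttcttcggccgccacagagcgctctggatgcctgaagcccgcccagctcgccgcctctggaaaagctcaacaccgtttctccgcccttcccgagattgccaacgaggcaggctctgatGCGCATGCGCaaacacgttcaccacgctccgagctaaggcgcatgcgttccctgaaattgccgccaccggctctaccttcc
These matches are descriptions of the letters and not binding sites.

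DNA replication and nucleotide supply gave 18 upward steps of 49 (36.7% against 2.08% of all tested genes) and 0 peaks or dips. The departure was called higher for 3 of the 49, beside 4.42% of all tested genes, and lower for none. Their median departure was 0.17. RRM2, the ribonucleotide reductase subunit that is made in S phase, had 80.1, 61.8, 70.8 and 84.2 CPM at 1 kPa, 106, 101, 98.3 and 105 CPM at 8 kPa, and 85.5, 96.4, 101 and 98.6 CPM at 30 kPa. The 1 kPa libraries were all below 8 kPa, and 30 kPa replicates 1 and 2 lay between the groups. The change was 0.47 ± 0.0827 (SE, adjusted p = 0.0077) from 1 to 8 kPa and -0.11 (95% interval -0.28 to 0.07) from 8 to 30 kPa. POLD2, a subunit of DNA polymerase delta, had 43.8 ± 3.05 CPM at 1 kPa, 57.2 ± 1.73 at 8 kPa and 55.2 ± 3.11 at 30 kPa, with changes of 0.38 ± 0.0593 (SE, adjusted p = 0.00552) and then -0.05 (95% interval -0.17 to 0.07). Leaving out 1 library gave 4 to 26 steps in this list.

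Genes of the adrenergic, neuron-like state of neuroblastoma gave 6 upward steps of 31 (19.4%), among them STMN2, GATA2, PHOX2A, SIX3 and ELAVL2. Of the 31, 30 had a positive departure, edgeR called 0 departures (5 at an unadjusted p under 0.05, 1 call by DESeq2 and 0 by limma-voom), and the list's median change was 0.24 from 1 to 8 kPa. Steps in this list ran from 0 to 10 when 1 library was left out, and were 0 when replicate 3 at 1 kPa or replicate 1 or 3 at 8 kPa was dropped. Among 38 genes of neuronal differentiation, 12 rose from 1 to 8 kPa, beside 8.17% of all tested genes. Upward steps were 3 of the 38 (STMN1 and NEFM among them), beside 2.08% of all tested genes, and the list's median change was 0.42. These steps ran from 0 to 8 when 1 library was left out. They were 0 without replicate 2 or 3 at 1 kPa and without replicate 1 or 3 at 8 kPa. GAP43, a growth-cone protein, had 69.2, 45.9, 67.7 and 97.05 CPM at 1 kPa, 122, 116, 123 and 82.95 CPM at 8 kPa, and 67.3, 78.1, 75.6 and 78.5 CPM at 30 kPa. Its 8 kPa replicate 4 lay within the range of the 1 kPa group, so that it was no peak despite a departure of 0.61 ± 0.144 (SE, adjusted p = 0.0309).

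The largest upward steps above 5 CPM, beside the ribosomal pseudogenes RPL39P3 and RPS27P3, were PRKCB, UBE2QL1, NMNAT2 and PHF21B. PRKCB, a conventional protein kinase C, had 3.56, 1.79, 2.86 and 4.56 CPM at 1 kPa, 7.68, 6.56, 7.31 and 4.91 CPM at 8 kPa, and 5.55, 7.57, 4.55 and 6.11 CPM at 30 kPa. The 1 and 8 kPa groups did not overlap, 8 kPa replicate 4 being nearest to 1 kPa, and the change was 1.03 ± 0.235 (SE, adjusted p = 0.0152), then -0.15 (95% interval -0.59 to 0.29). NMNAT2, the axonal enzyme of NAD synthesis, had 22.3 ± 7.51 CPM at 1 kPa, 41 ± 7.9 at 8 kPa and 36.4 ± 3.25 at 30 kPa, a change of 0.87 ± 0.193 (SE, adjusted p = 0.0141) with 1 kPa replicate 4 and 8 kPa replicate 4 nearly equal. UBE2QL1, a ubiquitin-conjugating enzyme-like protein, changed by 0.89 ± 0.17 (SE, adjusted p = 0.00962) and then -0.01 (95% interval -0.35 to 0.33). The calls of PRKCB and NMNAT2 were lost without 8 kPa replicate 3 (edgeR adjusted p = 0.0563 and 0.0523), and that of PHF21B when replicate 3 at 1 kPa or replicates 1 or 3 at 8 kPa were dropped singly (edgeR adjusted p up to 0.0625).

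Downward steps were led by SEMA4A, THBS3-AS1, EGLN2, GPNMB, HIVEP1 and ARMH1. GPNMB, a transmembrane glycoprotein of lysosomes and melanosomes at chr7:23235967-23275108 (GRCh38), had 252, 218, 252 and 242 CPM at 1 kPa, 166, 150.1, 166 and 147 CPM at 8 kPa, and 188, 141, 154 and 163 CPM at 30 kPa. The 1 kPa libraries stood above the other 8, which overlapped among themselves. The change was -0.62 ± 0.0832 (SE, adjusted p = 0.00521), then 0.04 (95% interval -0.14 to 0.22), and whichever library was dropped, the call from 1 to 8 kPa was kept, with a highest adjusted p of 0.0271. HIVEP1, a zinc finger protein that binds kB-like enhancers, had 45.9, 47.2, 47.9 and 52.4 CPM at 1 kPa, 33.1, 34.9, 32.3 and 30.2 CPM at 8 kPa, and 35.3, 33.2, 29.2 and 31.1 CPM at 30 kPa. Its 1 kPa group was likewise apart, with a change of -0.57 ± 0.0696 (SE, adjusted p = 0.00521) and then -0.02 (95% interval -0.17 to 0.13), and its call also held in all 12. SEMA4A, a class 4 semaphorin, had 12.7 ± 3.13 CPM at 1 kPa, 7.08 ± 0.659 at 8 kPa and 6.79 ± 1.15 at 30 kPa, a change of -0.84 ± 0.16 (SE, adjusted p = 0.00962) and then -0.07 (95% interval -0.42 to 0.27). EGLN2, a prolyl hydroxylase of hypoxia-inducible factors, changed by -0.67 ± 0.162 (SE, adjusted p = 0.019), a call that was lost without 8 kPa replicate 1 or 3. The lysosomal downward steps other than GPNMB were SQSTM1 and LAMP2, and those of the integrins were ITGAV and ITGA11.

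Most tested genes of the lists tied to stiffness sensing and matrix were outside all 4 classes, as were most tested genes. Their shares of calls were based on few genes. Of 25 tested YAP/TAZ targets, 1 was a dip (4% against 0.986%), 1 an upward step (4% against 2.08%) and 0 were peaks, while 19 had a mean at 8 kPa below both others and the median departure was -0.21. The dip was ARHGEF17, a RhoA exchange factor, with 72.7, 89.6, 74.7 and 73.7 CPM at 1 kPa, 63.5, 63.5, 61.6 and 71.6 CPM at 8 kPa, and 78.2, 76.8, 75.6 and 73.2 CPM at 30 kPa. It was below all others at 8 kPa, replicate 4 by about 1 CPM, and the departure was -0.24 ± 0.0597 (SE, adjusted p = 0.0351). Larger departures were not called: CCN1 -0.81 ± 0.28 (SE, edgeR adjusted p = 0.0861), CCN2 -0.76 ± 0.28 (0.103) and AMOTL2 -0.63 ± 0.214 (0.0813). These 3 were named after their values were seen, and their libraries overlapped. Lower calls in this list numbered 2 with DESeq2, 7 without a filter and 0 to 9 when 1 library was left out. Among 36 genes of matrix crosslinking and proteolysis, 28 had a mean at 8 kPa below both others and the median departure was -0.13, yet edgeR called 0 (1 higher and 10 lower at an unadjusted p under 0.05, 4 lower by DESeq2 and 0 by limma-voom). Of 38 collagens and matrix glycoproteins, 1 was lower (2.63%, near the 2.66% of all tested genes), LAMB2, with a departure of -0.27 ± 0.0691 (SE, adjusted p = 0.0374). Of 33 integrin and focal adhesion genes 2 were lower (6.06% against 2.66%), 1 was an upward step (3.03%), 2 were downward steps (6.06% against 1.14%) and 0 were peaks or dips. ITGA2, the collagen-binding integrin alpha 2, had 1340, 2515, 2156 and 1293 CPM at 1 kPa, 1073, 1436, 1237 and 1477 CPM at 8 kPa, and 2542, 2554, 2628 and 2233 CPM at 30 kPa. The 8 kPa group overlapped the 1 kPa group and was apart from 30 kPa, and the departure was -0.71 ± 0.163 (SE, adjusted p = 0.0307), the largest in that list.

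In further lists the peaks were few. Of 28 chaperones 4 were higher (14.3% against 4.42%), 0 were lower and 1 was a peak (3.57% against 2.11%). Of 23 cholesterol synthesis genes 3 were higher (13%), 0 were lower and 2 were peaks (8.7%), ACAT2 and FDFT1. Of 27 NRF2 and glutathione genes 7 were higher (25.9%) and 2 were peaks (7.41%), GPX4 and PGD, while GSTM2, a glutathione transferase, was lower with a departure of -0.56 ± 0.108 (SE, adjusted p = 0.0233), and SLC7A11, the cystine transporter, was a downward step. GPX4, which reduces lipid peroxides, had 105 ± 8.13 CPM at 1 kPa, 132 ± 9.89 at 8 kPa and 111 ± 5.16 at 30 kPa, a departure of 0.29 ± 0.0574 (SE, adjusted p = 0.0238). Of 44 replication-dependent histone genes 23 were tested, with 1 peak, H2BC12, beside 2.11% of all tested genes. There was 1 upward step, H2BC11, beside 2.08%, and the median departure was 0.2. In the TGF-beta and BMP list, ID2, a BMP-responsive inhibitor of helix-loop-helix factors, was the 1 peak among 31 (3.23%), with 99.8 ± 8.52 CPM at 1 kPa, 124 ± 6.66 at 8 kPa and 105 ± 12.6 at 30 kPa. That list also had 3 upward steps (9.68% against 2.08%), SMAD9, SMAD6 and MSX2, and 2 downward steps (6.45% against 1.14%), BMPR2 and SKIL. Of the 31, 2 were higher, ID2 among them, beside 4.42% of all tested genes, and 1 was lower, beside 2.66%. The lower gene was LTBP4, a latent TGF-beta binding protein, with a departure of -0.31 ± 0.0734 (SE, adjusted p = 0.0309). GSTM2 shares sequence with its neighbour GSTM4, which it overlaps, and its counts are uncertain.

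**Figure D4:**
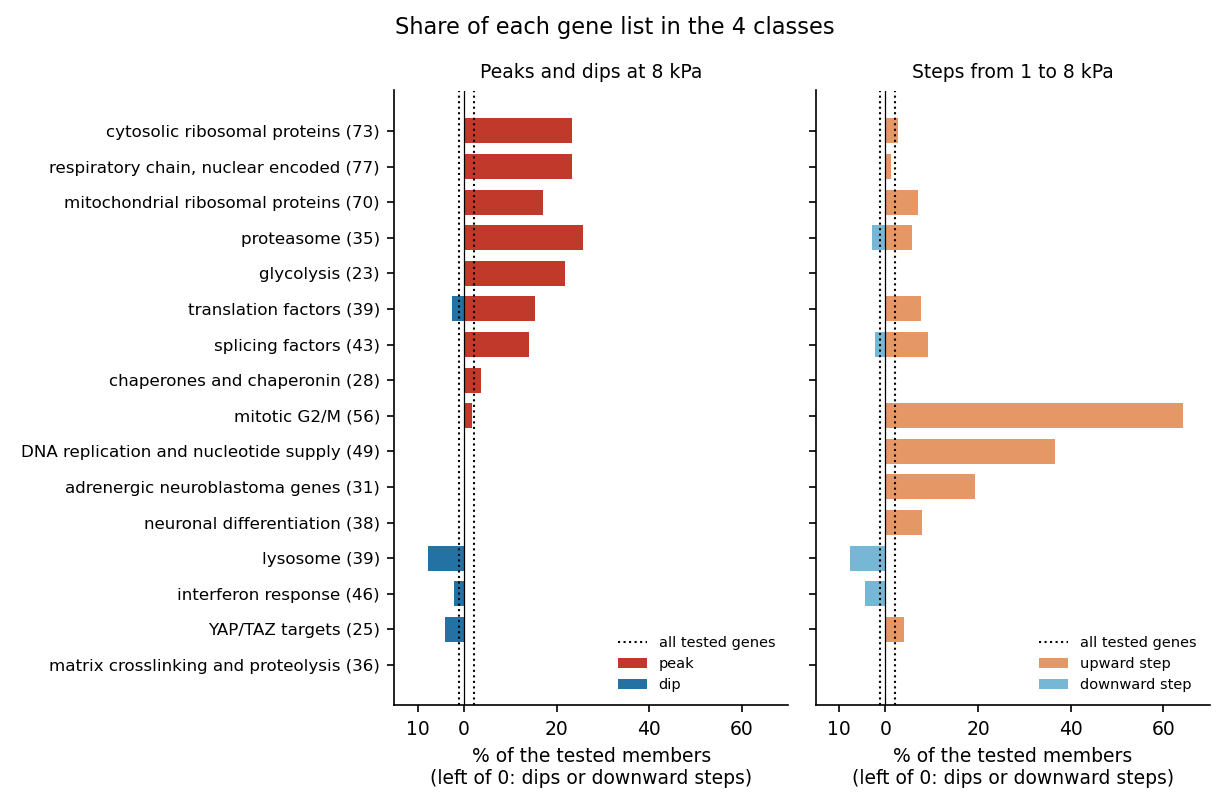
Share of the tested members of 16 gene lists (number tested in parentheses) that were peaks or dips (left panel) and upward or downward steps (right panel), in percent, with the share among all tested genes dotted. Ribosomal, respiratory and proteasome lists extend to the right in the left panel (17.1% to 25.7% for the 4 lists at the top), and mitotic genes in the right panel (64.3%).

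The classes differed in the kind of transcript they held. The longest annotated transcript had a median of 2130 bases for peaks, 4130 for dips, 3138 for upward steps and 4722 for downward steps, beside 3153 for all tested genes. Of the genes with a length of 1 to 2 kb, 4.68% were peaks, against 0.306% of those of 8 kb or more, and downward steps ran the other way, from 0.485% under 1 kb to 3.75% at 8 kb or more. Long noncoding genes were 5 of the 379 peaks (1.32%) and 37 of the 177 dips (20.9%), beside 17.3% of tested genes. Peaks were also more abundant, with a median of 60.8 CPM against 15.8 CPM. The rank correlation between a gene's level relative to the other libraries and its length was -0.0885 to 0.0116 in the libraries at 8 kPa, -0.0174 to 0.113 at 1 kPa and -0.129 to 0.0294 at 30 kPa, given over genes as a description. With an offset for length and GC content in each library, 345 peaks and 167 dips were found, of which 287 and 144 were among those above. The part of transcript length in the remaining calls was not tested.

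**Figure D5:**
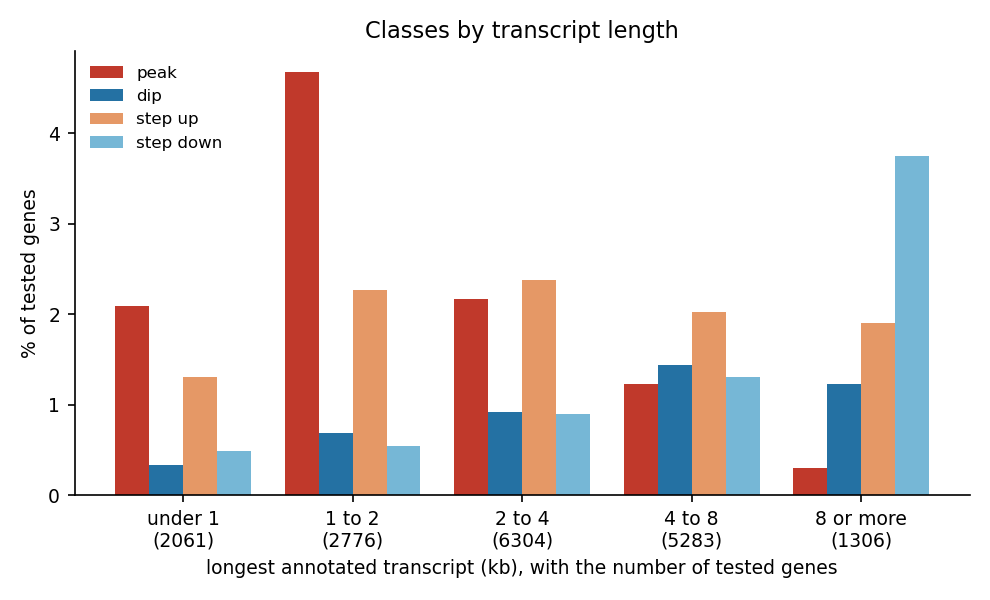
Share of tested genes (vertical axis, percent) that were peaks, dips, upward steps or downward steps, by the length of the longest annotated transcript (horizontal axis, kb). Peaks are most frequent between 1 and 2 kb (4.68%) and downward steps at 8 kb or more (3.75%).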

How the data were processed

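RNA-seq of total RNA, per the labels, gave 12 libraries, 4 at each stiffness. The authors deposited a table of read counts per gene without normalization. The submitters' processing notes name HISAT2 and the build GRCh38. The counting tool, annotation and strand setting are not given in the sources used here. The counts went into edgeR 4.0.16 (run in R 4.3.3): genes were kept by filterByExpr, scaled by TMM and tested with the quasi-likelihood F-test in 1 fit over 3 groups, with Benjamini-Hochberg adjustment at 0.05 over all 17960 tested genes. The departure is the log2 level at 8 kPa minus the mean of those at 1 and 30 kPa. Differences from 8 to 1 and from 30 to 8 kPa came from the same fit. DESeq2 1.42.0 and limma 3.58.1 (voom) served as alternatives, with other scalings, filters, a depth term, a replicate block and each library left out. Genes named were, above a mean of 5 CPM, the 12 highest and 12 lowest departures among peaks and dips, the 6 highest and 6 lowest changes among steps, and up to 3 genes per list with the smallest adjusted p of the departure. The members, lists, motifs and printed promoters were chosen with earlier results of these data known. A few genes of the lists are not reported here by name. The code was tested on simulated data. Totals of 14317437 to 27820973 counts set the precision, and libraries differ by more than counting error.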

Additional observations from a re-analysis of the deposited data

Results flagged for a closer look

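Within each stiffness, 1 library stood apart from the other 3 of its group (Dixon's criterion) in 15 of 324 groups of the named genes (4.63%), about the 1 in 20 that chance gives. At 1 kPa, CES4A was at 4.874 CPM in replicate 4 against 7.267 to 7.752 in the others. In 1 kPa replicate 2, SNHG29 was at 158.2 CPM against 196.2 to 199.5, NDUFB3 at 34.6 against 36.96 to 37.41, PNISR at 540.7 against 452.1 to 460.5 and ARHGEF17 at 89.58 against 72.67 to 74.71. TMSB4X was at 1035 CPM in 1 kPa replicate 3 against 826.3 to 848.0. At 8 kPa, replicate 4 stood apart for CSF1, at 49.97 CPM against 41.31 to 42.38, and for GAP43, at 82.95 against 116.5 to 122.7. At 30 kPa, replicate 1 was low for EIF3K, at 81.4 CPM against 84.95 to 85.53, and for ID2, at 86.41 against 109.4 to 113.1. In 30 kPa replicate 2, FAM229A was at 19.86 CPM against 18.13 to 18.32, ACAT2 at 30.67 against 27.81 to 28.27 and H2BC12 at 48.34 against 52.92 to 53.36. In 30 kPa replicate 4, EIF4EBP1 was at 23.03 CPM against 19.61 to 20.11 and NDUFS5 at 149.7 against 127.6 to 130.0.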

How the results depend on the processing

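The number of departures called, 1272 with all libraries, was 2296 with DESeq2, 1319 with limma-voom and 0 when 1 and 30 kPa were pooled into 1 group of 8 (4243 genes at an unadjusted p under 0.05), where peaks and dips were also 0 and 0. Leaving out 1 library gave 0 to 2870 departures, 0 to 939 peaks, 0 to 999 dips and 149 to 942 steps. With the depth class as a term there were 1268 departures and 0 steps. Allowing a change of up to 0.5 of the first one gave 1286 steps, and allowing libraries to overlap gave 791 peaks and 477 dips. At the 0.5 limit, upward steps rose from 2 to 42 of 73 cytosolic ribosomal proteins. They rose from 3 to 11 of 39 translation factors and from 5 to 14 of 70 mitochondrial ribosomal proteins. The median departures of the cytosolic ribosomal, respiratory chain, proteasome and mitochondrial genome lists kept their sign in every alternative run. Some lists with medians near 0 did not. That of actin, myosin and SRF went from 0.01 to -0.01 without 8 kPa replicate 4. In that fit 4 of its genes were higher and 4 were lower, against 4 and 0 in the main fit. The counts per gene list under each alternative and the values within each depth class were chosen after seeing the data.

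Replicate numbers were not taken to pair the libraries, since only 6 of 12 same-numbered pairs had a correlation of deviations over 0.1 (range -0.134 to 0.369, median of other pairs -0.0364). The replicate 2 libraries did deviate together (0.238, 0.179 and 0.369), and 5 libraries correlated best with their own number, a pattern the labels do not explain. CXCL8, named after its values were seen, had 3386, 3171 and 4176 CPM in replicate 2 at 1, 8 and 30 kPa. Every other library had 572.1 to 1620 CPM. CXCL1, named likewise, had 736.9, 846.8 and 863.1 CPM there against 120.6 to 349 elsewhere. The main fit has no term for replicate number, and what the number stands for was not tested. The replicate block gave 2096 departures, 418 peaks and 195 dips.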
